A study of Mus musculus with 4 samples.

Results

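Cytokine-expressing microglia are taken here as brain macrophages that carried messages of several inflammatory cytokine genes at once. A cell counted as a microglia when at least 5 of 8 microglia genes (P2ry12, Tmem119, Cx3cr1, Csf1r, Selplg, Siglech, Gpr34 and Fcrls) had a unique molecular identifier (UMI, the tag that marks 1 captured RNA molecule) and at most 2 of 7 genes of other brain cells (Mog, Mag, Aqp4, Gja1, Cldn5, Flt1 and Mrc1) had one. It counted as cytokine-expressing when at least 4 of the 6 genes Il1a, Il1b, Gpr84, Tnf, Osm and Bcl2a1b had a UMI and fewer than 3 of the 7 interferon-induced genes Ifit1, Ifit2, Ifit3, Isg15, Cxcl10, Rsad2 and Ifih1 did. By these rules 2255 of 44912 cells were cytokine-expressing microglia, out of 9036 microglia in all. Another 2609 microglia had at least 3 interferon genes and are called interferon microglia here, and the remaining 4172 are called other microglia.

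WT (wild-type) mice had received DOCA-salt, a mineralocorticoid given with salt to raise blood pressure, or a sham treatment, and cells were taken from their hippocampus and sensory cortex. Each of the 4 groups (DOCA-salt hippocampus, sham hippocampus, DOCA-salt cortex and sham cortex) is 1 library, labelled as 3 mice, and the labels do not say if the mice were pooled. The labels conflict on treatment. The titles give each tissue 1 DOCA-salt and 1 sham library, and these set the groups here, whereas the separate treatment entry calls both hippocampus libraries DOCA-salt and both cortex libraries sham. The treatment entry thus goes against the titles of the sham hippocampus and the DOCA-salt cortex library, and every contrast between treatments below rests on the titles. Age, sex and strain are not given in the sources used here. With 1 library for each tissue and treatment, no difference within a tissue could be tested against replicates, and no model across the tissues was fitted. Every interval below is a 95% interval of counting error that leaves out the spread between mice and libraries.

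Microglia patrol brain tissue and respond to injury and infection by transcribing cytokines and chemokines. Il1a and Il1b encode the interleukin-1 ligands, Tnf encodes tumour necrosis factor, and Osm encodes oncostatin M, a cytokine of the interleukin-6 family. Gpr84 is a receptor for medium-chain fatty acids that myeloid cells induce on inflammatory stimulation, and Bcl2a1b belongs to the Bcl2a1 family of survival factors. Many of these genes are targets of NF-κB, the transcription factor that Toll-like receptors and the receptors of interleukin-1 and tumour necrosis factor switch on.

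The promoters of 4 of the 6 genes that define the cells are shown because these genes were found at very different frequencies: Il1a, Tnf and Bcl2a1b in nearly every member and Il1b in a minority. Each run covers 250 bases before and 50 bases after the RefSeq transcript start on build GRCm38.p6, written along the gene's own strand. Capitals mark matches, on either strand, to an AP-1 site (TGANTCA), the PU.1 core (GAGGAA), the TATA box (TATAAA) and the NF-κB consensus. The promoters lie at chr2:129309923-129310222 on the minus strand (Il1a), chr17:35201958-35202257 on the minus strand (Tnf), chr9:89199023-89199322 on the plus strand (Bcl2a1b) and chr2:129371090-129371389 on the minus strand (Il1b).
Il1a: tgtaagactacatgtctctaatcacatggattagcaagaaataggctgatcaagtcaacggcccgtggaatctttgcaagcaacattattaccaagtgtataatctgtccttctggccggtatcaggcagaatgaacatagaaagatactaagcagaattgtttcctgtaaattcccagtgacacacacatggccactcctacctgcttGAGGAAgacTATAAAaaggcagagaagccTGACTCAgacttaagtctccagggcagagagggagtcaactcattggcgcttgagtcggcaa
Tnf: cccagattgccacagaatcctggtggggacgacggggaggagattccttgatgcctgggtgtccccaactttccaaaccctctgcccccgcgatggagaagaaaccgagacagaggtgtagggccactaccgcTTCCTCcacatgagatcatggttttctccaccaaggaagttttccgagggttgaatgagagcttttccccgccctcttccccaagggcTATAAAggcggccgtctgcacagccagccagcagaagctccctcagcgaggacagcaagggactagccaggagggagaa
Bcl2a1b: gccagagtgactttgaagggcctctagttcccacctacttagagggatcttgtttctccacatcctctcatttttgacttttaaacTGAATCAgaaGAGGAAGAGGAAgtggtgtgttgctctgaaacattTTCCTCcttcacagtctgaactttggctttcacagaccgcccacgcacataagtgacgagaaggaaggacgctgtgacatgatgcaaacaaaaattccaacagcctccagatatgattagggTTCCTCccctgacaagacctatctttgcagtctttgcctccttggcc
Il1b: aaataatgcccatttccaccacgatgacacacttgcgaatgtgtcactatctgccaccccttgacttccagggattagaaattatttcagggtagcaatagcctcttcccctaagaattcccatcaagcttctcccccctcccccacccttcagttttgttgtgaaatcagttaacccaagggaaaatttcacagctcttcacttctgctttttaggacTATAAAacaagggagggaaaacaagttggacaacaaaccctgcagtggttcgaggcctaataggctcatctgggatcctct

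A TATA box lay 32, 29 and 31 bases before the start in the Il1a, Tnf and Il1b promoters, and the Bcl2a1b window held none. The PU.1 core was found 1 time in the Il1a window, 1 time in the Tnf window and 4 times in the Bcl2a1b window, and an AP-1 site stood in the Il1a and Bcl2a1b windows. No window held a match to the NF-κB consensus. Among all 32851 mouse promoters of this length, 13.6% held the TATA box, 28.3% the PU.1 core, 7.81% the AP-1 site and 8.46% the NF-κB consensus. A match is only a run of letters, and nothing follows from its absence.

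Cytokine-expressing cells made up a larger share of microglia in the DOCA-salt library than in the sham library of both tissues. They numbered 583 of 2396 microglia in DOCA-salt hippocampus, against 265 of 2285 in sham hippocampus. They numbered 784 of 2038 microglia in DOCA-salt cortex, against 623 of 2317 in sham cortex. As shares these were 24.3% (95% exact binomial interval 22.6 to 26.1) in DOCA-salt hippocampus and 11.6% (10.3 to 12.98) in sham hippocampus. In cortex they were 38.5% (36.4 to 40.6) with DOCA-salt and 26.9% (25.1 to 28.7) with sham. The DOCA-salt share was 2.10 times the sham share in hippocampus (1.81 to 2.44) and 1.43 times in cortex (1.29 to 1.59). The order of the 4 libraries therefore ran from sham hippocampus, lowest, through DOCA-salt hippocampus and sham cortex, whose intervals overlapped, to DOCA-salt cortex, highest.

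The size of the difference depended on which microglia were counted. The sham hippocampus library held 997 interferon microglia, against 549 in DOCA-salt hippocampus, and such cells cannot be members. Among microglia under the interferon limit the members' share was 31.6% in DOCA-salt hippocampus and 20.6% in sham hippocampus, a ratio of 1.53 (1.33 to 1.78). In cortex it was 49.5% with DOCA-salt and 36.5% with sham, a ratio of 1.36 (1.22 to 1.51). Of all cells, members made up 5.19% in DOCA-salt hippocampus and 2.36% in sham hippocampus, and 6.91% in DOCA-salt cortex and 5.62% in sham cortex.

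Members were deeper than other microglia, which bears on a rule that needs several genes to be detected. Their median was 6866 UMIs in DOCA-salt hippocampus, 6341 in sham hippocampus, 6580 in DOCA-salt cortex and 6594 in sham cortex, against 5373, 4846, 4700 and 4927 in other microglia of the same libraries. After every microglia was thinned to 3000 UMIs, and those below that left out (285 in DOCA-salt hippocampus, 323 in sham hippocampus, 291 in DOCA-salt cortex and 321 in sham cortex), members made up 14.7% of DOCA-salt and 6.73% of sham hippocampal microglia. In cortex the thinned shares were 27.4% with DOCA-salt and 15.9% with sham. The thinned ratio of DOCA-salt to sham was 2.19 (1.78 to 2.71) in hippocampus and 1.73 (1.495 to 1.996) in cortex.

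**Figure D1:**
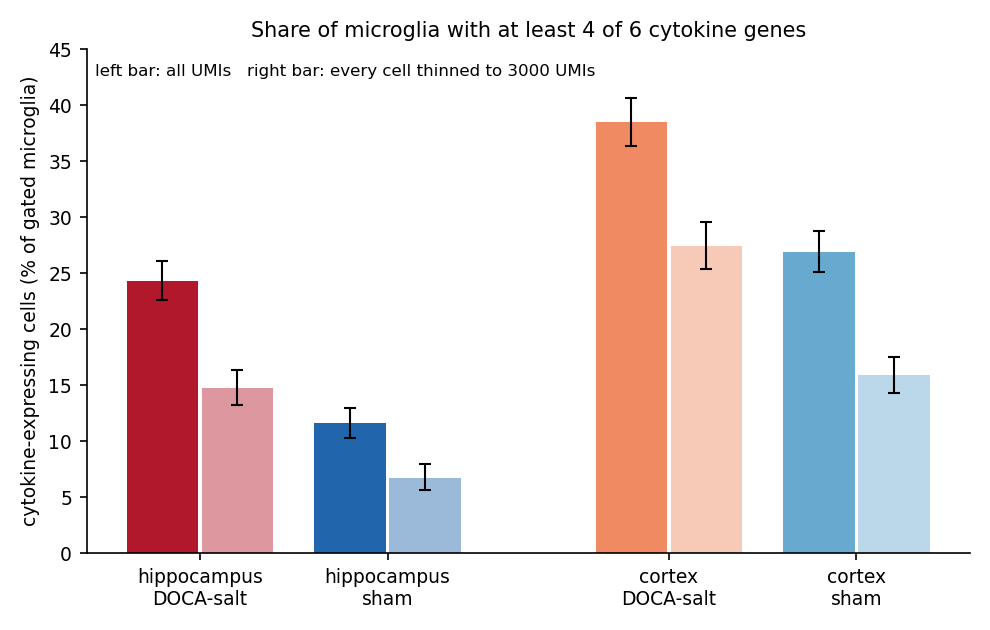
Cytokine-expressing cells as a percentage of gated microglia in the 4 libraries, from all UMIs (left bar of each pair) and with every cell thinned to 3000 UMIs (right bar); error bars are 95% exact binomial intervals. In hippocampus and in cortex both DOCA-salt bars stand above the matching sham bars, 24.3% against 11.6% and 38.5% against 26.9% from all UMIs.

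Most members sat just inside the rule. Of the 583 members in DOCA-salt hippocampus, 422 had exactly 4 cytokine genes, 139 had 5 and 22 had all 6. Of the 265 in sham hippocampus, 183 had 4, 67 had 5 and 15 had 6. Of the 784 in DOCA-salt cortex, 496 had 4, 228 had 5 and 60 had 6, and of the 623 in sham cortex, 419 had 4, 170 had 5 and 34 had 6. Just outside, with 3 cytokine genes, were 489 microglia in DOCA-salt hippocampus, 300 in sham hippocampus, 388 in DOCA-salt cortex and 487 in sham cortex.

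The members kept the microglia identity on which they were chosen. All 8 microglia genes had a UMI in 520 of 583, 237 of 265, 679 of 784 and 578 of 623 members of DOCA-salt hippocampus, sham hippocampus, DOCA-salt cortex and sham cortex. P2ry12, the purinergic receptor that marks surveying microglia, was found in 98.8% of members in DOCA-salt hippocampus, 98.5% in sham hippocampus, 99.2% in DOCA-salt cortex and every member in sham cortex. Its level in CPM (UMIs per 1000000 in the summed cells of a class) was 2201 in members and 2403 in other microglia of DOCA-salt hippocampus, 2198 and 2062 in sham hippocampus, 2085 and 2221 in DOCA-salt cortex, and 2401 and 2369 in sham cortex. Of 32 further genes of resting microglia that the rule did not use, such as Sall1, none differed by 1.5-fold between members and other microglia in all 4 libraries, and their median log2 ratio was 0.05, 0.20, 0.01 and 0.05 in the same order of libraries. Of all 11195 genes with at least 20 UMIs over both classes in each library, 0.393% were that much higher and 4.16% lower. Of the 32, 13 were above 1 in all 4 libraries and 1 was below, beside 12.1% and 31.2% of all genes.

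The 6 cytokine genes chose the members, so their levels are given as a description. Il1a was the most abundant of them, on chromosome 2 (129299610 to 129309972, GRCm38). It stood at 1027 CPM in members, against 349.9 CPM in other microglia, in DOCA-salt hippocampus, and at 1057 against 340.8 CPM in sham hippocampus. In cortex it reached 1571 CPM in members, against 685.5 CPM in other microglia, with DOCA-salt, and 1328 against 717.4 CPM with sham. Members had a median of 5, 4, 8 and 7 Il1a UMIs per cell in DOCA-salt hippocampus, sham hippocampus, DOCA-salt cortex and sham cortex. Il1a was thus higher in cortex than in hippocampus in members and in other microglia alike.

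Tnf, on chromosome 17 (35199381 to 35202007), was at 874.5 CPM in members, against 392.9 CPM in other microglia, in DOCA-salt hippocampus, and at 650.3 against 222.0 CPM in sham hippocampus. In cortex it was at 925.2 CPM in members and 460.1 CPM in other microglia with DOCA-salt, and at 600.6 and 261.0 CPM with sham. Interferon microglia had slightly more Tnf than the members, with 909.1, 760.7, 1069 and 700.6 CPM in DOCA-salt hippocampus, sham hippocampus, DOCA-salt cortex and sham cortex. The rule asked at least 4 of these genes of members and none of interferon microglia, so the order of the levels is a description. Il1a, Il1b, Gpr84, Osm and Bcl2a1b were higher in members than in interferon microglia in the 4 libraries, and Tnf was not.

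Gpr84 and Osm were several-fold higher in members than in other microglia. Gpr84, on chromosome 15 (103308235 to 103310612), was at 348.4 CPM in members, against 68.8 CPM in other microglia, in DOCA-salt hippocampus, and at 282.1 against 52.3 CPM in sham hippocampus. In cortex it was at 399.3 CPM in members and 68.3 CPM in other microglia with DOCA-salt, and at 284.5 and 62.3 CPM with sham. Members held 46.1%, 43.8%, 48.6% and 42.0% of all Osm UMIs of DOCA-salt hippocampus, sham hippocampus, DOCA-salt cortex and sham cortex, while being 2.36% to 6.91% of the cells. Osm was found in 29.2%, 42.3%, 32.1% and 36.9% of members of those libraries, with a median of 0 UMIs per cell.

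Il1b was the least evenly spread of the 6. It was found in 26.4% of members in DOCA-salt hippocampus, 27.9% in sham hippocampus, 31.1% in DOCA-salt cortex and 29.2% in sham cortex, and the tenth of members with the most Il1b held 79.9%, 78.7%, 74.8% and 75.1% of its UMIs. Its level was 146.2 CPM in members, against 29.7 CPM in other microglia, in DOCA-salt hippocampus, and 182.4 against 8.34 CPM in sham hippocampus. In cortex it was 180.6 CPM in members and 10.1 CPM in other microglia with DOCA-salt, and 156.5 and 11.6 CPM with sham. The commonest set of genes was Il1a with Gpr84, Tnf and Bcl2a1b and neither Il1b nor Osm, in 304, 107, 366 and 271 members of DOCA-salt hippocampus, sham hippocampus, DOCA-salt cortex and sham cortex. Most members are therefore Il1a and Tnf cells in which no Il1b was detected at this depth.

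Bcl2a1b, on chromosome 9 (89199209 to 89207827), was found in 97.36% to 97.96% of members across the libraries, at 625.7 CPM in members and 257.0 CPM in other microglia of DOCA-salt hippocampus. Its near-identical neighbours Bcl2a1a and Bcl2a1d lie on the same chromosome, and how the authors' counting split reads between them is not given, so the values of all 3 are uncertain. Cells outside the microglia gate with at most 1 microglia gene were not cleared of neutrophils or other immune cells. A Tnf UMI was found in 9.68%, 6.63%, 10.7% and 5.98% of them (DOCA-salt hippocampus, sham hippocampus, DOCA-salt cortex, sham cortex), at a median depth of 4283 to 4739 UMIs. An Il1b UMI was found in 2.48%, 0.583%, 2.01% and 0.98% of the same cells. These shares stand beside the shares in members, which the rule fixed in part, and they can include immune cells that make these cytokines.

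**Figure D2:**
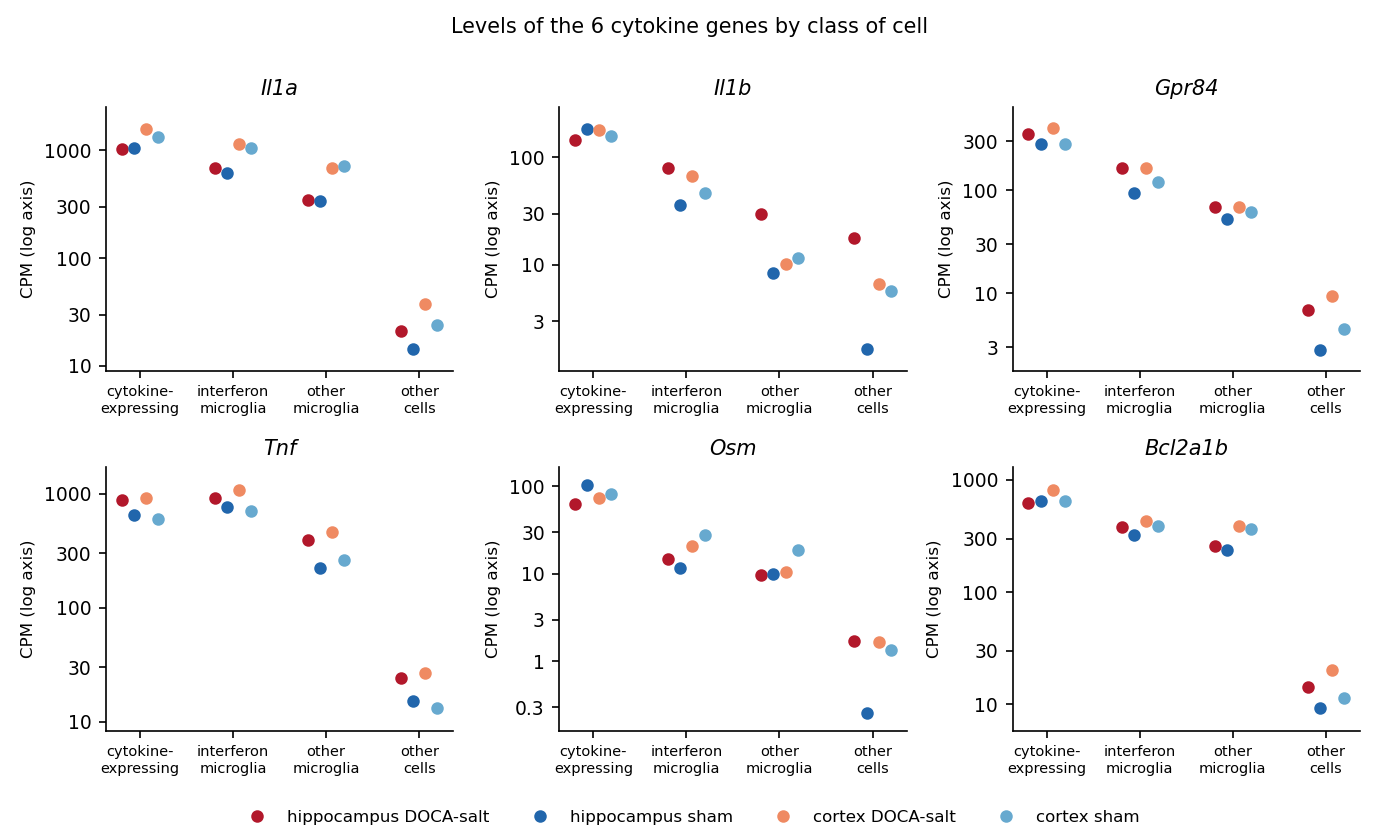
Levels of Il1a, Il1b, Gpr84, Tnf, Osm and Bcl2a1b in CPM (log axis) in cytokine-expressing microglia, interferon microglia, other microglia and other cells (outside the gate, with at most 1 microglia gene); each point is 1 library. Tnf stands slightly higher in interferon microglia (700.6 to 1069 CPM) than in members (600.6 to 925.2 CPM), and the other 5 genes are highest in members.

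Outside the genes of the rule, the members' profile was led by chemokines and transcription factors of early activation. Bcl2a1a and Bcl2a1d also led, but they are near-identical to the rule gene Bcl2a1b, so their excess may follow from the rule. The same cells were split by the rule, so ratios against other microglia are descriptions. Of 9387 genes with at least 50 UMIs over both classes in each library, 33 (0.352%) were at least 1.5-fold higher in members than in other microglia in all 4 libraries, and 309 (3.29%) were at least 1.5-fold lower. The median log2 ratio of all genes was -0.09, -0.06, -0.11 and -0.08 in DOCA-salt hippocampus, sham hippocampus, DOCA-salt cortex and sham cortex. The 15 genes with the highest excess, ranked by the bound of the counting interval nearest to 1, are described next.

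Egr3, an early growth response transcription factor, was at 51.9 CPM in members and 20.9 CPM in other microglia of DOCA-salt hippocampus, and at 52.4 and 15.3 CPM in sham hippocampus. In cortex it was at 63.4 CPM in members and 19.7 CPM in other microglia with DOCA-salt, and at 69.6 and 32.7 CPM with sham. These are ratios of 2.48 (2 to 3.09), 3.41 (2.51 to 4.66), 3.21 (2.49 to 4.19) and 2.13 (1.76 to 2.59). Egr3 was also lower in interferon microglia than in members, at 14.2, 10.9, 25.5 and 20.8 CPM in the same order. Nr4a1, an orphan nuclear receptor induced within minutes of stimulation, had ratios of members to other microglia from 1.59 to 2.20, and Batf and Cebpb, transcription factors of myeloid activation, from 1.98 to 2.90 and from 1.495 to 2.18.

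Ccl3, which encodes the chemokine MIP-1α and lies on chromosome 11 (83647844 to 83649355), was at 1596 CPM in members and 827.0 CPM in other microglia of DOCA-salt hippocampus, and at 2081 and 800.8 CPM in sham hippocampus. In cortex it was at 1831 CPM in members and 900.7 CPM in other microglia with DOCA-salt, and at 1755 and 964.7 CPM with sham. Its neighbour Ccl4 was the most abundant of the leading genes, at 3231 CPM in members and 1772 CPM in other microglia of DOCA-salt hippocampus, with ratios from 1.45 in sham cortex to 2.10 in sham hippocampus. Ccl4 was still higher in interferon microglia, at 5360, 6654, 6454 and 7711 CPM in DOCA-salt hippocampus, sham hippocampus, DOCA-salt cortex and sham cortex. Cxcl2, a neutrophil attractant, had ratios of 2.95, 2.88, 2.17 and 1.86 in the same libraries, and Ccrl2, a receptor-like protein that presents the attractant chemerin, ratios from 1.73 to 2.38.

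The other leading genes were the survival genes Bcl2a1d (ratios from 2.35 to 3.66) and Bcl2a1a (1.88 to 2.62), the kinase gene Pim1 (1.83 to 3.66), the stress gene Gadd45b (1.65 to 2.21), the small GTPase gene Rab20 (1.69 to 2.13), the activation marker Cd83 (1.53 to 2.07) and the stress cytokine gene Gdf15 (1.92 to 3.65). Sham hippocampus, the library with the fewest members, gave the largest of its 4 ratios for each of these 7 genes. Gdf15 was detected in only 3.43%, 6.04%, 7.65% and 8.19% of members of DOCA-salt hippocampus, sham hippocampus, DOCA-salt cortex and sham cortex. Cd83 was found at 831.4 CPM in members, against 486.5 CPM in other microglia, in DOCA-salt hippocampus and at 887.3 against 578.3 CPM in sham cortex.

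**Figure D3:**
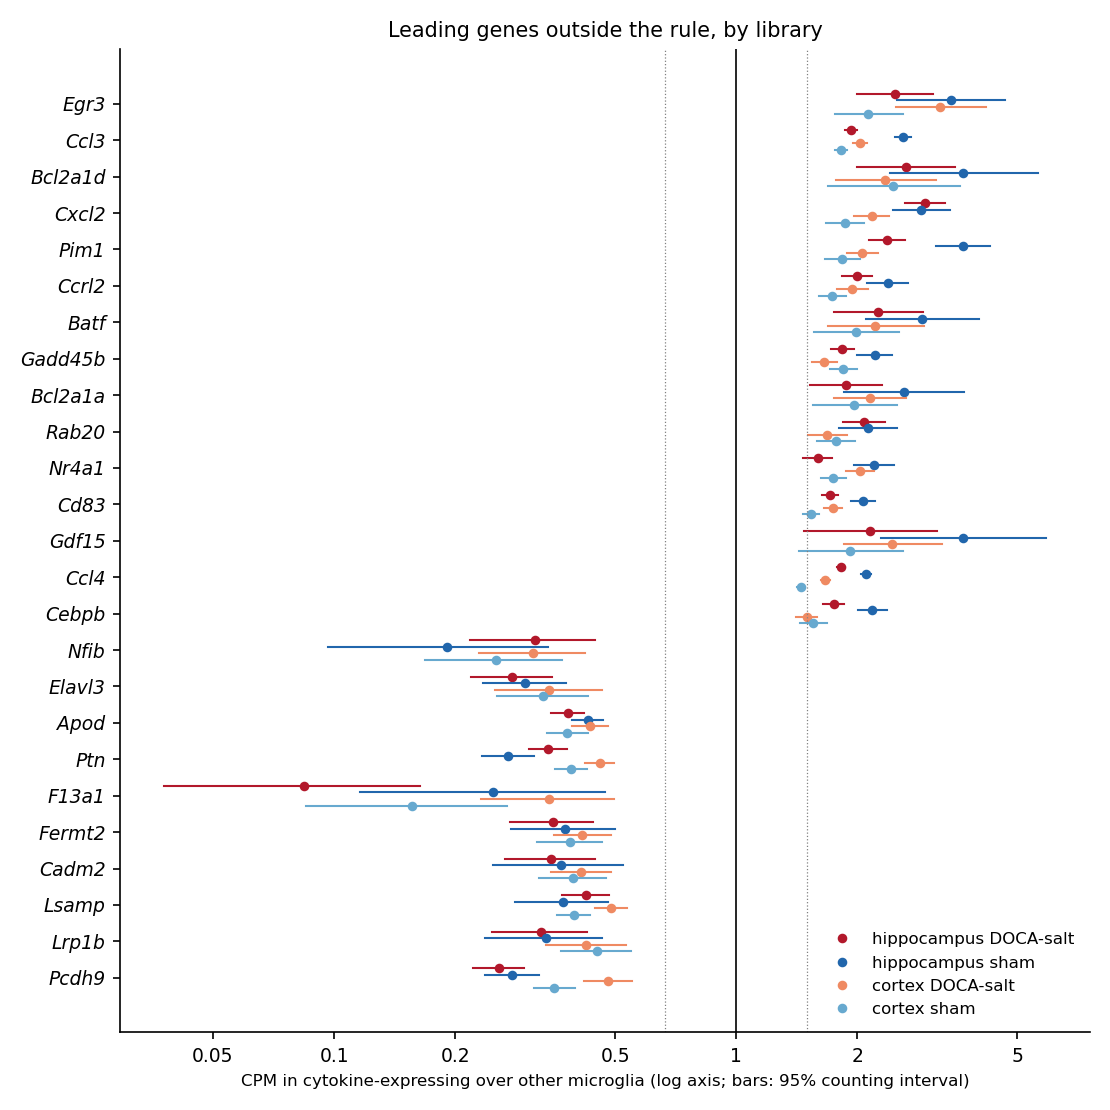
Ratio of CPM in cytokine-expressing over other microglia (log axis) for the 15 leading and the 10 lowest genes outside the rule, with 1 point and its 95% counting interval for each library; dotted lines mark 1.5-fold in either direction. The upper 15 genes lie to the right of 1 and the lower 10 to the left in all 4 libraries, with F13a1 in DOCA-salt hippocampus lowest at 0.0841.

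By group, 4 of 13 measured genes of a chemokine list were at least 1.5-fold higher in members in all 4 libraries. These were the chemokine genes Ccl3, Cxcl2 and Cxcl16 and the receptor-like gene Ccrl2. The same held for 3 of 23 immediate early genes (Egr3, Dusp2 and Nr4a1) and 6 of 21 other NF-κB targets (Cd83, Bcl2a1a, Bcl2a1d, Tlr2, Pim1 and Gadd45b). Bcl2a1a and Bcl2a1d among these targets are not independent of the rule gene Bcl2a1b. Among all 11195 genes with at least 20 UMIs over both classes in each library, 44 (0.393%) passed. Tlr2, a receptor for bacterial lipoproteins, was at 162.7, 123.9, 172.3 and 172.3 CPM in members, against 88.4, 67.3, 109.9 and 104.1 CPM in other microglia, of DOCA-salt hippocampus, sham hippocampus, DOCA-salt cortex and sham cortex. Of the feedback inhibitors of NF-κB, 1 of 16 passed (Bcl3), and 12 of 16 were above 1 in all 4 libraries, beside 1357 of 11195 genes (12.1%). Nfkbia, which encodes the inhibitor IκBα, was at 4176 CPM in members and 3267 CPM in other microglia of DOCA-salt hippocampus, with ratios from 1.20 to 1.38. Tnfaip3, which encodes the inhibitor A20, had ratios of 1.71, 1.86, 1.39 and 1.24. None of 8 NF-κB subunit and kinase genes, none of 14 inflammasome and interleukin-1 pathway genes and none of 12 genes for processing or sensing tumour necrosis factor and oncostatin M passed in either direction. In the same order, 6 of 8, 3 of 14 and 5 of 12 were above 1 in all 4 libraries, and 0, 2 and 1 were below. Of all genes 12.1% were above 1 and 31.2% below.

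Of 12 measured cytokines outside the rule, Tnfsf9, the ligand of 4-1BB, was the only one to pass in all 4 libraries, at 26.3, 17.5, 25.3 and 19.9 CPM in members and 6.59, 7.77, 10.9 and 6.496 CPM in other microglia. Il6 was low throughout, at 14.8 CPM in members and 10.97 CPM in other microglia of DOCA-salt hippocampus. Of 22 measured genes of disease-associated microglia, Lgals3 (galectin-3) was higher in members, with ratios of 1.97, 4.42, 5.02 and 5.55, and Apoe and Fabp5 were lower. Apoe was at 1445, 1262, 2454 and 1634 CPM in members, against 2419, 1969, 4062 and 2718 CPM in other microglia and 6632, 4215, 12992 and 10025 CPM in non-microglial cells. Among all genes 466 (4.16%) were lower in the 4 libraries. Lgals3 was detected in 0.963% to 4.29% of members. None of 13 heat shock genes, which encode chaperones, passed in either direction.

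The low end was made of RNA that belongs to other brain cells. Nfib, Elavl3, Apod, Ptn, Fermt2, Cadm2, Lsamp, Lrp1b and Pcdh9 were all higher in non-microglial cells (outside the gate, with at most 1 microglia gene) than in any class of microglia. Ptn, which encodes the growth factor pleiotrophin, was at 93.6 CPM in members, 274.8 CPM in other microglia and 1593 CPM in non-microglial cells of DOCA-salt hippocampus. F13a1 is a gene of border macrophages, and its ratios of 0.0841, 0.248, 0.342 and 0.157 rest on 9, 10, 43 and 15 UMIs in members. Summed over 9 astrocyte markers (without Slc1a3, described further on), members held 717.3, 310.2, 1833 and 1283 CPM, against 1120, 546.4, 3215 and 2314 CPM in other microglia, of DOCA-salt hippocampus, sham hippocampus, DOCA-salt cortex and sham cortex. The part of this RNA in the ratios of other genes was not tested, but microglia with exactly 3 cytokine genes, an alternative chosen after seeing the data, held amounts near those of members. Slc1a2, an astrocyte glutamate transporter gene, was at 166.2 CPM in members with 4 genes and 133.3 CPM in cells with 3 of DOCA-salt hippocampus, and at 58.96 and 56.2 CPM in sham hippocampus.

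Against those neighbours the profile narrowed. No gene was 1.5-fold lower in all 4 libraries, and 8 genes were higher, 7 of them among the 33. Egr3 was at 51.9 CPM in members and 29.7 CPM in cells with 3 cytokine genes of DOCA-salt hippocampus, and its ratio was 1.75, 1.67, 2.31 and 1.71 in DOCA-salt hippocampus, sham hippocampus, DOCA-salt cortex and sham cortex. Cxcl2 had ratios of 2.91, 2.24, 2.31 and 1.79, and Ccl3 ratios of 1.45, 1.67, 1.62 and 1.49. Leading genes that fell under 1.5-fold in each library were Gadd45b (1.28 to 1.49), Cd83 (1.27 to 1.46), Ccl4 (1.25 to 1.47) and Cebpb (1.28 to 1.37). Under a stricter microglia gate, which left 75, 20, 114 and 95 members, 2 genes rather than 33 were higher in all 4 libraries, and Cxcl2, Batf, Bcl2a1a and Nr4a1 were each below 1 in at least 1 library.

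Levels changed step by step with the number of cytokine genes rather than at the limit of 4. In DOCA-salt hippocampus Ccl3 went through 186.1, 592.7, 757.7, 1100, 1410, 2058 and 1953 CPM as cells had 0, 1, 2, 3, 4, 5 and 6 cytokine genes. Over the same steps of that library Egr3 was at 3.00, 12.6, 18.2, 29.7, 42.7, 69.8 and 96.6 CPM. Slc1a2 went the other way, through 612.4, 447.2, 229.1, 133.3, 166.2, 125.3 and 107.3 CPM, and the median depth of cells rose through 2330, 4066, 5468, 5952, 6599, 7275 and 8228 UMIs. P2ry12 was lowest in the cells with no cytokine gene, at 1355 CPM, highest at 2 genes, at 2764 CPM, and 2103 CPM at 6 genes. Cells with 0 or 1 cytokine gene are thus shallower and hold more of this astrocyte RNA, and the class of other microglia includes them.

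**Figure D4:**
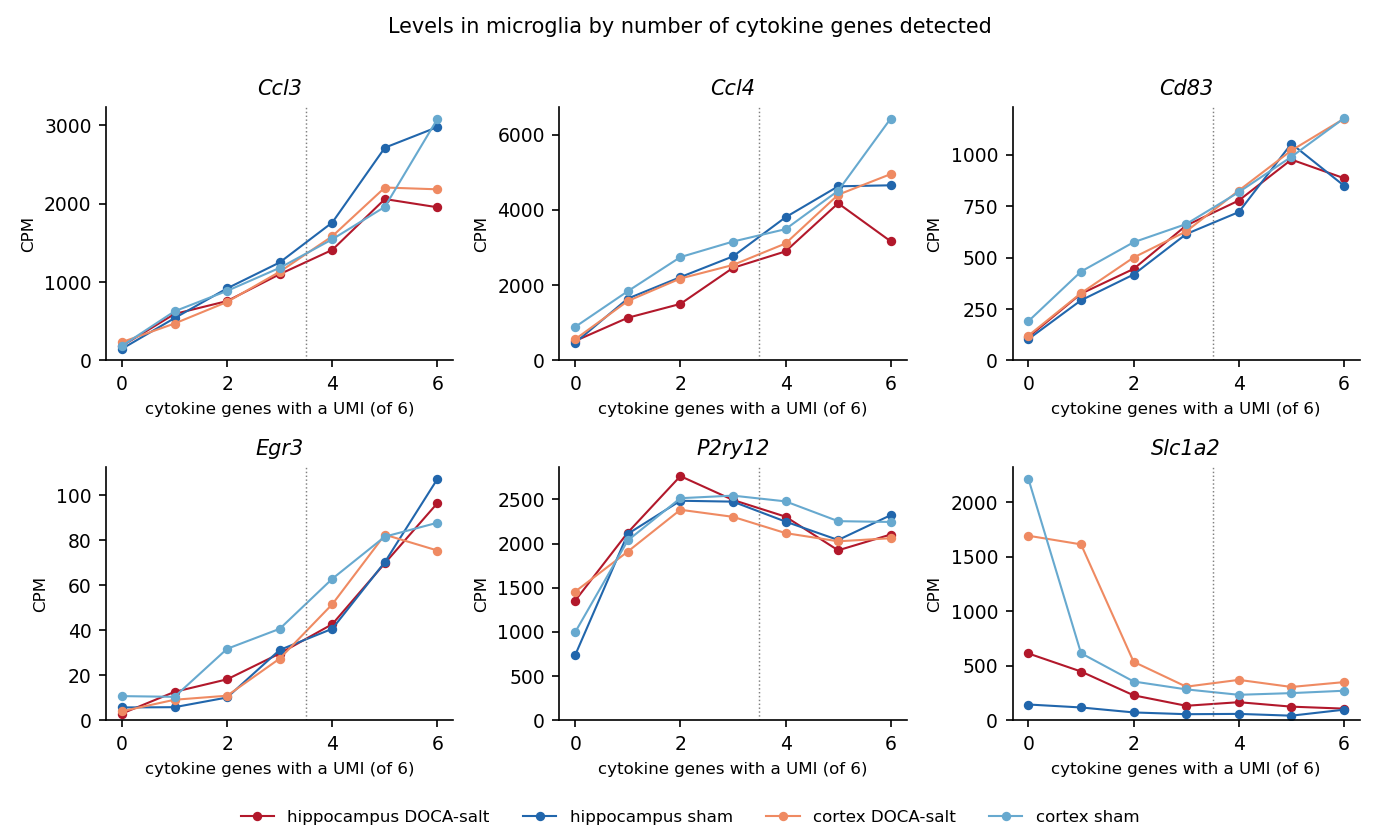
Levels of 6 genes in CPM in microglia under the interferon limit, by how many of the 6 cytokine genes had a UMI, 1 line per library; the dotted line separates members (4 or more) from other microglia (0 to 3). Ccl3, Ccl4, Cd83 and Egr3 climb across the dotted line without a step, and Slc1a2 is highest in cells with 0 cytokine genes (612.4 CPM in DOCA-salt hippocampus).

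Between treatments, the members of DOCA-salt libraries carried more Tnf and Gpr84 than those of sham libraries in both tissues. Because members were chosen on these genes, the values are a description. Tnf was at 874.5 CPM in DOCA-salt and 650.3 CPM in sham hippocampus, a ratio of 1.35 (1.26 to 1.44), and at 925.2 CPM in DOCA-salt and 600.6 CPM in sham cortex, a ratio of 1.54 (1.47 to 1.62). Gpr84 was at 348.4 CPM in DOCA-salt and 282.1 CPM in sham hippocampus, a ratio of 1.24 (1.11 to 1.37), and at 399.3 CPM in DOCA-salt and 284.5 CPM in sham cortex, a ratio of 1.40 (1.31 to 1.51). Both DOCA-salt libraries were above both sham libraries for each of these genes. In other microglia the Tnf ratio was 1.77 (1.65 to 1.90) in hippocampus and 1.76 (1.64 to 1.89) in cortex, so the Tnf difference was not limited to members. The Gpr84 ratio there was 1.315 (1.13 to 1.53) in hippocampus and 1.096 (0.927 to 1.295) in cortex.

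The other cytokine genes did not share one direction. Osm was lower with DOCA-salt in hippocampal members, at 62.9 CPM against 103.6 CPM with sham (ratio 0.607, 0.501 to 0.737), and its cortical interval of 0.762 to 1.02 included 1. Over all gated microglia the Osm ratio was 1.11 (0.950 to 1.29) in hippocampus and 0.985 (0.870 to 1.12) in cortex, both with intervals that included 1. Il1b was at 146.2 CPM in DOCA-salt and 182.4 CPM in sham hippocampus (ratio 0.801, 0.699 to 0.920), and at 180.6 CPM in DOCA-salt and 156.5 CPM in sham cortex (1.15, 1.04 to 1.28). In other microglia the Il1b ratio was 3.56 (2.56 to 5.06) in hippocampus, opposite to members, and 0.870 (0.564 to 1.325) in cortex. Il1a was at 1027 CPM in DOCA-salt and 1057 CPM in sham hippocampus, and at 1571 CPM in DOCA-salt and 1328 CPM in sham cortex. Over all gated microglia, a choice the cytokine limit does not touch, Il1b was at 75.2 CPM in DOCA-salt and 44.95 CPM in sham hippocampus, and at 99.8 CPM in DOCA-salt and 67.7 CPM in sham cortex. Over the same microglia Tnf was 1.25 times as high with DOCA-salt as with sham in hippocampus and 1.64 times in cortex, and Gpr84 was 1.67 and 1.597 times as high. In bulk sums of this kind, more cells with a message and more message per cell cannot be told apart.

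Neutrophil RNA lay beside the Il1b values of 1 library. Neutrophils make Il1b, and 75 of 583 members of DOCA-salt hippocampus had at least 3 of 10 neutrophil markers, against 0 of 265 in sham hippocampus, 2 of 784 in DOCA-salt cortex and 1 of 623 in sham cortex. Csf3r was found in 71.2% of members of DOCA-salt and 71.7% of sham hippocampus, and without it the other 9 markers sum to 321.6 CPM in members of DOCA-salt and 4.50 CPM in those of sham hippocampus, where 7 of them were at 0, Ly6g among them. Other microglia held 480.0 CPM of these 9 markers in DOCA-salt and 4.36 CPM in sham hippocampus, so the difference was not limited to members. S100a8 and S100a9, which encode the neutrophil protein calprotectin, had 540 and 689 UMIs in members of DOCA-salt hippocampus, of which 327 and 367 were in the highest single member. Without the 75 members, Il1b was at 141.9 CPM in DOCA-salt hippocampus, against 182.4 CPM in sham hippocampus (ratio 0.778, 0.675 to 0.897), and Tnf at 883.3 against 650.3 CPM. Other myeloid RNA lay beside Il1b too. Mrc1, a border macrophage marker, was at 60.1 CPM in members with Il1b and 7.63 CPM in those without in sham hippocampus. It was at 41.6 and 6.63 CPM in DOCA-salt cortex, 18.3 and 6.16 CPM in sham cortex, and 0.859 and 2.98 CPM in DOCA-salt hippocampus. There Ly6c2, a monocyte marker, was at 26.6 CPM with Il1b and 2.32 CPM without, and Il1b members of other libraries held none. How far such RNA bears on Il1b was not tested.

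Across the profile, 412 of 8907 genes (4.63%) were at least 1.5-fold higher in members of DOCA-salt than of sham hippocampus and 535 (6.01%) at least 1.5-fold lower. In cortex 398 of 9990 genes (3.98%) were higher and 325 (3.25%) lower. The genes that ranked first between treatments, by the bound of the counting interval nearest to 1, were not cytokines. Most pointed the same way in hippocampus and cortex and in other microglia.

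Cntn4, which encodes the neural adhesion protein contactin-4 and lies on chromosome 6 (105677660 to 106699310), was at 53.8 CPM in members of DOCA-salt and 0.563 CPM in those of sham hippocampus, and at 65.6 CPM in DOCA-salt and 1.91 CPM in sham cortex. It was found in 167 of 583 members in DOCA-salt hippocampus against 1 of 265 in sham hippocampus, and in 241 of 784 in DOCA-salt cortex against 8 of 623 in sham cortex. Other microglia showed a difference in the same direction, at 49.5 CPM in DOCA-salt and 2.27 CPM in sham hippocampus.

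Ccr6, the receptor of the chemokine CCL20, was at 97.6 CPM in members of DOCA-salt and 7.32 CPM in those of sham hippocampus, a ratio of 13.3 (7.71 to 25.3), and at 78.2 CPM in DOCA-salt and 5.98 CPM in sham cortex, a ratio of 13.1 (8.74 to 20.5). Tagap1, a T cell activation GTPase-activating protein gene near it on chromosome 17, had ratios of 12.9 and 16.2 in hippocampus and cortex. Arhgap6, another GTPase-activating protein gene, lies on chromosome X. It was found in 66 of 583 and 95 of 784 members of the DOCA-salt libraries, against 3 of 265 and 4 of 623 of the sham libraries (hippocampus and cortex). It differed in non-microglial cells too, at 32.8 CPM in DOCA-salt and 6.75 CPM in sham hippocampus, and at 44.9 CPM in DOCA-salt and 5.95 CPM in sham cortex. Dpys, which encodes the pyrimidine-degrading enzyme dihydropyrimidinase, had 160 UMIs in DOCA-salt and 1 in sham cortex, and 39 in DOCA-salt and 0 in sham hippocampus, which is at least 5.52-fold higher at a floor of 3 counts. Arsb, a lysosomal sulfatase gene, and Lsp1, a leukocyte actin-binding protein gene, were more abundant: Arsb was at 439.8 CPM in DOCA-salt and 159.9 CPM in sham hippocampus and at 389.3 CPM in DOCA-salt and 118.9 CPM in sham cortex, and Lsp1 had ratios of 2.38 and 2.23.

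Slc1a3, a glutamate transporter gene best known from astrocytes, was at 1817 CPM in members of DOCA-salt and 143.0 CPM in those of sham hippocampus, and at 1608 CPM in DOCA-salt and 242.2 CPM in sham cortex. It was found in 580 of 583 members in DOCA-salt hippocampus against 142 of 265 in sham hippocampus. The 9 other astrocyte markers sum to 717.3 CPM in members of DOCA-salt and 310.2 CPM in those of sham hippocampus, a ratio of 2.31, and to 1833 CPM in DOCA-salt and 1283 CPM in sham cortex, a ratio of 1.43, beside ratios of 12.7 and 6.64 for Slc1a3. In non-microglial cells Slc1a3 was at 761.8 CPM in DOCA-salt and 414.4 CPM in sham hippocampus, and at 1907 CPM in DOCA-salt and 1859 CPM in sham cortex. The part of astrocyte RNA in this difference was not tested.

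Genes lower with DOCA-salt in both tissues were Upk1b, Fblim1, Itga6, Nlrp1b and Rnf150. Upk1b, a gene of the uroplakin family, was at 15.1 CPM in members of DOCA-salt and 39.4 CPM in those of sham hippocampus, and at 16.6 CPM in DOCA-salt and 83.3 CPM in sham cortex. Fblim1, which encodes the adhesion protein migfilin, had ratios of 0.233 and 0.298. Itga6, an integrin subunit gene, had 0.516 and 0.538, Nlrp1b, an inflammasome sensor gene, 0.483 and 0.542, and Rnf150 0.269 and 0.475. C5ar2, a receptor for complement C5a, was at 16.0 CPM in DOCA-salt and 45.2 CPM in sham cortex, and Rnaset2b, a lysosomal ribonuclease gene, at 138.8 and 301.3 CPM. Rnaset2b lies on chromosome 17 (6970634 to 7011299), near Tagap1 (6955011 to 6961156) and Ccr6 (8236043 to 8257141). Whether these neighbours differ separately was not tested.

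For 3 named genes the ratio in members was unlike that in other microglia, and their values rest on few cells. Lpl, the lipoprotein lipase gene, was at 10.8 CPM in members of DOCA-salt and 28.7 CPM in those of sham hippocampus, but 30 of the 51 sham UMIs were in a single member, and other microglia had a ratio of 1.74 (1.01 to 3.11), in the opposite direction. Cd209f, a C-type lectin gene of border macrophages, had 56 UMIs in members of DOCA-salt cortex from 3 cells and 1 UMI in sham cortex, and other microglia of cortex had a ratio of 0.660 (0.397 to 1.07). Adgrl2, the adhesion receptor latrophilin-2, was found in 35 of 583 members in DOCA-salt and 40 of 265 in sham hippocampus, with a ratio of CPM of 0.336 (0.214 to 0.526), against 0.981 (0.732 to 1.32) in other microglia. The difference between members and other microglia was not tested.

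By group, 3 of 13 heat shock genes (Hspa1b, Hsph1 and Hsp90ab1) were at least 1.5-fold lower with DOCA-salt in members of both tissues, beside 158 of 10835 genes (1.46%). The ratio was below 1 in both tissues for 12 of the 13, beside 3642 of 10835 genes (33.6%), with median log2 ratios of -0.54 in hippocampus and -0.49 in cortex, against -0.01 and -0.03 for all genes. Hspa1b was at 53.8 CPM in DOCA-salt and 106.4 CPM in sham hippocampus, and at 77.3 CPM in DOCA-salt and 165.8 CPM in sham cortex. Other microglia had nearly the same medians, -0.52 and -0.50. Of 13 measured genes of the chemokine list, 3 (Ccl5, Ccl6 and Cxcl14) were at least 1.5-fold higher in both tissues, beside 205 of 10835 genes (1.89%). The main chemokines of the members were not: Ccl3 was at 1596 CPM in DOCA-salt and 2081 CPM in sham hippocampus, and at 1831 CPM in DOCA-salt and 1755 CPM in sham cortex. None of 16 feedback inhibitors, 22 other NF-κB targets or 23 immediate early genes passed 1.5-fold in either direction in both tissues. Of 17 genes of glucocorticoid and mineralocorticoid signalling, Hsd11b1 was higher and Zbtb16 and Klf9 were lower.

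**Figure D5:**
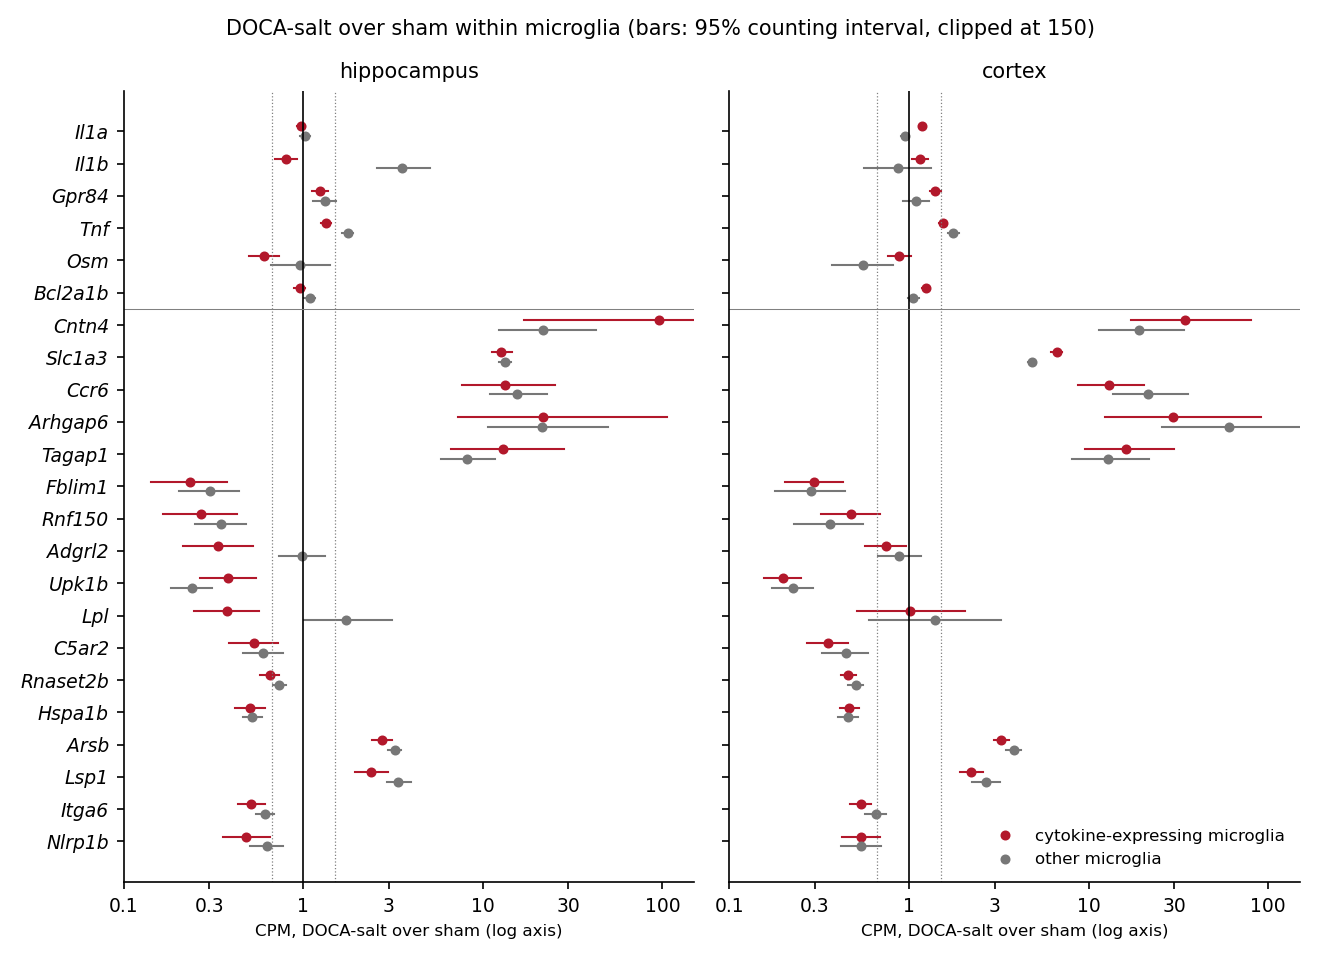
Ratio of CPM, DOCA-salt over sham (log axis), in cytokine-expressing microglia (red) and other microglia (grey) for the 6 cytokine genes (above the line) and the genes named between treatments, by tissue; bars are 95% counting intervals, and Dpys and Cd209f, with counts of 0 or 1 in some groups, are not drawn. Red and grey points lie close for most genes below the line, such as Ccr6 (13.3 and 15.6 in hippocampus), and apart for Lpl (0.375 and 1.74 in hippocampus).

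RNA of other cell types was present in the members in amounts that varied with the library. Oligodendrocyte markers sum to 2329, 5586, 1801 and 2659 CPM in members of DOCA-salt hippocampus, sham hippocampus, DOCA-salt cortex and sham cortex. Other microglia of these libraries held 8626, 16753, 2993 and 6113 CPM. Mag, among the rule's genes of other cells, had a UMI in 66.9%, 79.25%, 55.0% and 56.0% of members. Endothelial markers sum to 865.4, 820.9, 712.1 and 670.5 CPM in members, against 933.1, 1032, 868.2 and 756.6 CPM in other microglia, of DOCA-salt hippocampus, sham hippocampus, DOCA-salt cortex and sham cortex. Red blood cell markers sum to 798.4, 2797, 1805 and 501.5 CPM in members, against 6508, 3194, 511.0 and 1611 CPM in other microglia. Border macrophage markers sum to 22.97, 101.3, 86.7 and 53.1 CPM in members, against 215.0, 191.9, 240.6 and 190.5 CPM in other microglia of these libraries. Monocyte markers sum to 52.4, 14.1, 15.8 and 10.8 CPM in members. Ttr, the choroid plexus transcript of transthyretin, was at 31.1 CPM in members of DOCA-salt hippocampus and at 3655 CPM, in all 265 members, of sham hippocampus. The rest of the sham hippocampus library held such RNA too, and choroid plexus markers sum there to 3863 CPM in members, 17472 CPM in other microglia and 21960 CPM outside the gate. Cells marked as doublets made up 1.20%, 3.02%, 1.91% and 2.73% of members, and 3.56%, 7.62%, 3.13% and 8.57% of other microglia. Dividing cells were rare, with at least 3 of 9 mitotic genes in 2, 1, 1 and 3 members.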

How the data were processed

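Single-cell RNA-seq libraries were made with a 3' droplet kit (SeekOne Digital Droplet), per the labels' protocols. The authors deposited 1 matrix of UMI counts per library, raw and over 32285 genes, and fastp, STAR, Subread, Seurat and GRCm38 are named in the submitters' processing notes. Versions, annotation release and the strand setting of counting are not given in the sources used here. The deposited matrices held 11159 to 11402 barcodes and 66824217 to 70173987 UMIs.

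Barcodes were dropped below 300 detected genes or above 20% mitochondrial UMIs, which left 11086 to 11354 cells per library. Members were called by the gene rules of the report. For each class its cells' UMIs were added up and scaled to a total of 1000000 (CPM), and ratios have exact 95% intervals conditional on the summed count. Shares have exact Clopper-Pearson intervals. With 1 library per group no test was made within a tissue and no fit across tissues, and a change of at least 1.5-fold with at least 50 UMIs (20 for gene lists) was counted instead. The members and the gene lists were chosen with earlier results of these data known.

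Named genes were the 15 highest and 10 lowest against other microglia, and the 5 highest and 5 lowest between treatments in each tissue and in both, ranked by the interval bound nearest to 1. Genes of the rule and mitochondrial, ribosomal, haemoglobin, immunoglobulin, Y-linked and unnamed genes, Xist and Tsix were left out. Other X-linked genes stayed in, Arhgap6 among them. Between treatments a gene had to be at least as high in members as outside the gate. Named members of a list were picked to illustrate its count. Scrublet in scanpy 1.11.5 marked doublets, which stayed in except in 1 alternative. Pairs of libraries shared 94 to 105 barcodes, and at most 1 was a member in both. Alternatives changed the number of cytokine genes, the gate, the interferon limit, depth, UMI minimum, scaling and libraries. A denominator under the interferon limit, scaling to resting microglia genes, microglia with exactly 3 cytokine genes, the removal of members with neutrophil markers and marker sums without Slc1a3 or Csf3r were chosen after seeing the data. Python 3.11.15, numpy 2.4.6, pandas 2.3.3, scipy 1.17.1 and matplotlib 3.10.9 were used, and the counting of changed genes was tested on simulated data. Promoters and gene positions were read from RefSeq GRCm38.p6 and a GRCm38 annotation.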

Additional observations from a re-analysis of the deposited data

Results flagged for a closer look

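Cells outside the definition also carried cytokine genes. Outside the microglia gate, at least 4 of the 6 cytokine genes were found in 304 of 8845 cells of DOCA-salt and 165 of 8946 of sham hippocampus, a ratio of shares of 1.863 (1.537 to 2.266). In cortex they were found in 416 of 9316 cells with DOCA-salt and 278 of 8769 with sham, a ratio of 1.409 (1.207 to 1.645). Nearly all of these cells (294, 161, 395 and 275 in DOCA-salt hippocampus, sham hippocampus, DOCA-salt cortex and sham cortex) had at least 5 microglia genes together with more than 2 genes of other cells. Among interferon microglia, 221 of 549 had at least 4 cytokine genes in DOCA-salt and 213 of 997 in sham hippocampus, a ratio of 1.884 (1.554 to 2.285). In cortex 187 of 454 did with DOCA-salt and 209 of 609 with sham, a ratio of 1.2 (0.98 to 1.469), whose interval included 1.

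Members differed between treatments in opposite directions in the 2 tissues for 3 genes, a difference that was not tested. Ccl7, a monocyte-attracting chemokine, was at 34.93 CPM in DOCA-salt and 64.75 CPM in sham hippocampus (ratio 0.5395), and at 113.5 CPM in DOCA-salt and 70.83 CPM in sham cortex (ratio 1.602). H2-Aa, which encodes a class II antigen-presenting chain, had ratios of 0.5312 in hippocampus and 1.946 in cortex, and H2-Eb1, another such chain, 0.4775 and 1.764. The class II values rest on single cells: 1 member held 68 of 125 H2-Aa UMIs in DOCA-salt hippocampus, 87 of 100 in sham hippocampus, 85 of 205 in DOCA-salt cortex and 68 of 83 in sham cortex.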

How the results depend on the processing

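The members' share of microglia was higher in the DOCA-salt than in the sham library of both tissues under the alternatives tried. Its ratio in hippocampus, 2.10 as reported, was 1.809 with at least 3 cytokine genes, 1.604 without the interferon limit, 2.57 under a stricter gate (7 of 8 microglia genes and none of the other cells' genes) and 1.534 with the denominator under the interferon limit. In cortex, 1.43 as reported, it was 1.2 with at least 3 genes, 1.605 with at least 5 and 1.726 after thinning. Counts of genes moved more, and the cause was not tested. Genes higher in members than in other microglia, 33 as reported, numbered 58 with at least 3 cytokine genes, 20 with at least 5, 19 without Bcl2a1b in the rule, 18 after thinning, 2 under the stricter gate, 17 with at least 200 UMIs, 64 with no minimum, 52 over the 2 libraries whose labels are alike and 8 against microglia with exactly 3 cytokine genes. Genes lower, 309 as reported, numbered 575, 192, 185, 42, 0, 91, 644, 671 and 0 in the same order, and 197 without the interferon limit. Between treatments in hippocampus, 412 genes higher and 535 lower became 261 and 346 with at least 5 cytokine genes, 271 and 319 without Bcl2a1b, 228 and 242 after thinning, 202 and 147 under the stricter gate, 70 and 123 with at least 200 UMIs, and 1675 and 2522 with no minimum. Many of these were other genes. With at least 5 cytokine genes, 74 of the 261 and 100 of the 346 were among the 412 and 535. After thinning 46 of 228 and 49 of 242 were, and under the stricter gate 12 of 202 and 18 of 147. With at least 200 UMIs all 70 and 123 were. In cortex, 398 higher became 197 under the stricter gate, 112 with at least 200 UMIs and 2130 with no minimum, and 325 lower became 81 and 1613 at those minimums. Of the 197 genes, 32 were among the 398, and all of the 112 were. In the weakest library, ratios crossed 1 for Cxcl2 after thinning (0.9896) and, under the stricter gate, for Cxcl2 (0.7872), Batf (0.9119), Bcl2a1a (0.7001), Nr4a1 (0.9335), Nfib (2.1), Elavl3 (2.316), Ptn (1.094), F13a1 (4.201), Cadm2 (1.05), Lsamp (1.138) and Pcdh9 (1.406). Against microglia with exactly 3 cytokine genes they crossed 1 for Ptn (1.153), F13a1 (9.72), Fermt2 (1.031), Cadm2 (1.078), Lsamp (1.175) and Lrp1b (1.021). Between treatments Adgrl2 in hippocampus was 2.038 under the stricter gate, and Cd209f in cortex was 0 after thinning. No paired analysis was possible because the labels give no replicate numbers and each tissue and treatment held 1 library. A fit with tissue as a block, which would leave 1 residual degree of freedom, was not made.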

Other observations

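Members also differed between treatments in a few genes of glucocorticoid signalling and in 1 further cytokine gene, all with low counts. Hsd11b1, which encodes the enzyme that regenerates active glucocorticoid, was at 8.37 CPM in DOCA-salt and 2.25 CPM in sham hippocampus, and at 6.599 CPM in DOCA-salt and 4.07 CPM in sham cortex, where the interval of the ratio (0.885 to 3.09) included 1. Klf9, a glucocorticoid-induced transcription factor gene, was at 17.9 CPM in DOCA-salt and 29.8 CPM in sham hippocampus, and at 15.1 CPM in DOCA-salt and 26.1 CPM in sham cortex. Tnfsf13b, which encodes the B cell survival factor BAFF, was at 32.3 CPM in DOCA-salt and 20.3 CPM in sham hippocampus, and at 24.7 CPM in DOCA-salt and 9.09 CPM in sham cortex.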
